A study of Mus musculus with 24 samples.

Results

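Chemokines are small secreted or membrane-anchored proteins that direct the movement of leukocytes, and their receptors are G protein-coupled receptors on the responding cells. Ligands are named by the spacing of their first cysteines (CC, CXC, CX3C), and a ligand often binds several receptors while a receptor often binds several ligands. Atypical receptors bind chemokines without conventional G protein signalling, and several of them remove or transport the ligand. In injured liver, chemokines are known for recruiting monocytes, neutrophils and lymphocytes and for acting on stellate cells, from which most scar collagen comes. The genes described here were rows of the count table whose mouse symbol begins with Ccl, Cxcl, Ccr or Cxcr followed by a number, or with Ackr and a number, together with Ccrl2, Cx3cl1 and Cx3cr1. It gave 56 genes of 56205 rows, made up of 35 ligands, 16 signalling receptors and 5 atypical receptors. Of these, 34 carried enough counts to be tested, among 14109 tested genes in all.

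Expression was measured by sequencing poly(A) RNA from whole livers of 24 C57BL/6J mice, 12 on a methionine-choline deficient (MCD) diet and 12 on a control diet. Both diets were given for 20 weeks, and no other treatment or genetic change is labelled in either group. The MCD diet is a dietary model of steatohepatitis with fibrosis, so the comparison asked how chemokine genes differed in that setting. This MCD feed is described by the authors as high in fat, and elsewhere they speak of a high-fat diet lacking choline in mice. The name on the labels is kept here. Mice of both sexes were used, but neither sex nor batch is labelled for single libraries, so each diet was treated as a single group. Age at the start was not given for this diet in the sources used here. A whole-liver library mixes all cell types, and fewer cells of a type and less RNA per cell cannot be told apart in it.

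Libraries held 16793207 to 24915175 counts in control and 16388650 to 24577848 in MCD. Counts were scaled by library size with TMM factors and are given as CPM. A count of 3 was used as the floor of what could be resolved, and equals 0.134 to 0.227 CPM in control and 0.109 to 0.158 CPM in MCD libraries. TMM factors were at most 0.973 in control and at least 1.07 in MCD libraries. Without them, on total counts alone, the median log2 fold change over all genes was 0.37 higher, so every change is given relative to TMM. The tissue label was checked with hepatocyte genes, and Alb, which encodes albumin, had 56630 to 124900 CPM in control and 37950 to 61200 CPM in MCD livers.

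Of the 56 chemokine and receptor genes, 23 were called higher in MCD livers, 4 lower and 7 not past the threshold, and 22 were too low to test. Calls were made with edgeR's quasi-likelihood test, where a gene had to reach an FDR (false discovery rate, Benjamini-Hochberg) of at most 0.01 and a log2 fold change beyond 0.5 in either direction. By that rule 23 of the 34 tested genes were higher. The low-count filter, which asked for about 0.51 CPM in 12 libraries, bears on these counts. In 15 of the 34 genes every library of both diets reached that level, and 9 of these were higher, 3 lower and 3 not past the threshold. Another 15 reached it in every MCD library but not in every control library, and 14 of these were higher. Genes of that kind could enter the test through MCD livers alone, so the counts and the median over the 34 describe the genes tested and not the whole family. Among all genes, 1554 of 11633 (13.4%) of the first kind and 1081 of 1571 (68.8%) of the second were higher. Over all 14109 tested genes the shares were 19.2% higher and 19.1% lower, 38.3% in either direction. With total counts alone, 24 members were higher and 2 lower, while the shares over all genes were 32.2% and 6.01%. The 34 genes had a median log2 fold change of 1.77, against -0.10 over all tested genes. For 20 of the 34, every MCD library lay above every control library, which held for 9.50% of all tested genes. No member lay below every control library in all MCD libraries, against 4.88% of all tested genes. By role, 15 of the 35 ligands were higher and 3 lower among 21 tested. Of the 16 signalling receptors 8 were tested and 7 were higher, with Cxcr5 not past the threshold, and 1 of 5 atypical receptors was higher and 1 lower. The higher genes reached the filter level in every library of both diets for 7 of the 15 ligands and for 1 of the 7 signalling receptors, Ccr2, while the other 8 ligands and 6 receptors did so in every MCD library but not in every control library. Among the tested genes the largest rise was that of Cx3cl1 (3.51 on the log2 scale) and the largest fall that of Ccl25 (-1.24). Ccl25 reached the filter level in every control library but in 11 MCD libraries, so it could enter the test through control livers alone.

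**Figure D1:**
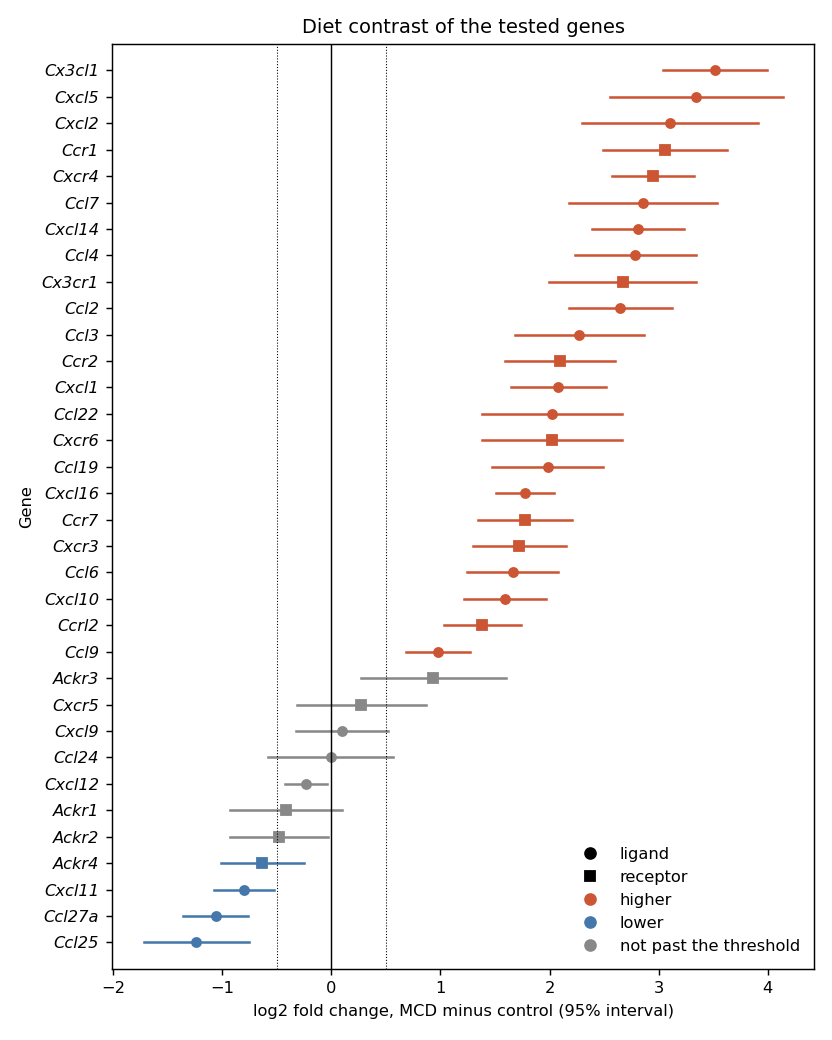
Log2 fold change of each of the 34 tested genes, MCD minus control, with its 95% confidence interval from the edgeR fit; circles are ligands, squares receptors, and dotted lines mark the fold limit of 0.5 in either direction. The 23 higher genes run from Ccl9 at 0.98 to Cx3cl1 at 3.51, and the 4 lower ones from Ackr4 at -0.63 to Ccl25 at -1.24.

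Many of these genes lie next to each other in the genome, so the groups are given first with their positions in GRCm38 (mm10). A block of 6 CC ligand genes at chr11:82035571-82305690 holds Ccl2, Ccl7, Ccl11, Ccl12, Ccl8 and Ccl1, of which only Ccl2 and Ccl7 were abundant enough to test, and both were higher. The neighbouring block at chr11:83572919-83664683 holds Ccl9, Ccl6, Ccl3 and Ccl4, all 4 tested and all higher. On chromosome 5 the CXCR2 ligand genes Cxcl5, Cxcl3, Cxcl15, Cxcl1 and Cxcl2 lie within chr5:90759360-90905938, and the 3 tested were higher. The CXCR3 ligand genes at chr5:92321347-92365485 were mixed, with Cxcl10 higher, Cxcl11 lower and Cxcl9 not past the threshold. The receptor genes Ccr9, Cxcr6, Ccr1, Ccr3 and Ccr2 lie within chr9:123678439-124113557, and the 3 tested were all higher. These blocks other than that of the CXCR3 ligands held 12 tested genes, all 12 higher. The CXCR3 ligand block held 3, with 1 higher, 1 lower and 1 not past the threshold. Over all tested genes 19.2% were higher. Leaving out the block with mixed calls follows the result, so 12 of 12 is not a like comparison with that share. Only 4 of the 12 (Ccl9, Ccl6, Cxcl1 and Ccr2) reached the filter level in every library of both diets, and the other 8 did so in all MCD but not all control libraries, so the counts partly follow from the filter.

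Promoters of several inflammatory CXC ligands hold words of a known regulatory class. NF-kappaB, a transcription factor activated by inflammatory stimuli, is known to bind words of the kind GGGA, any 2 bases, then TTCC (called kB-like here). Interferon-activated factors bind words of the kind GAAA, any 2 bases, then GAAA (called ISRE-like here). Both strands of the 250 bases before each RefSeq gene start (assembly GRCm38.p6) were searched, and overlapping matches on opposite strands were counted once per promoter. RefSeq promoters were at hand for 43 of the 56 genes. The others were Ccl11, Ccl2, Ccl24, Ccl26, Ccl4, Ccl7, Ccr10, Ccr7, Cxcl11, Cxcl16, Cxcl17, Cxcl5 and Cxcr5. The kB-like word was present in 6 of the 43 (Ccl1, Ccr3, Cxcl1, Cxcl10, Cxcl2 and Cxcl3) and in 1.21% of all 32851 promoters. The ISRE-like word was present in 3 (Ccl19, Cxcl10 and Cxcl14) and in 2.98% of all promoters. For both words the members were counted by gene and the background by promoter, so these shares are not in the same unit. Of the 17 higher genes with a promoter, 3 held the kB-like and 3 the ISRE-like word. A match describes letters and is not evidence of binding.

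The promoters of the CXCR2 ligand genes Cxcl1, Cxcl2 and Cxcl3 are shown because they hold the same letters, GGGAATTTCCC, a kB-like word on both strands at once. In the promoter of Cxcl15, in the same block, no match was found. That of Cxcl10 is shown because it holds both words. Each is the 250 bases upstream of the RefSeq start, 5′ to 3′ on the strand of the gene, with the matches in capitals. The positions are chr5:90890995-90891244 on the plus strand for Cxcl1, chr5:90903649-90903898 (plus) for Cxcl2, chr5:90785851-90786100 (plus) for Cxcl3 and chr5:92348890-92349139 (minus) for Cxcl10.
Cxcl1: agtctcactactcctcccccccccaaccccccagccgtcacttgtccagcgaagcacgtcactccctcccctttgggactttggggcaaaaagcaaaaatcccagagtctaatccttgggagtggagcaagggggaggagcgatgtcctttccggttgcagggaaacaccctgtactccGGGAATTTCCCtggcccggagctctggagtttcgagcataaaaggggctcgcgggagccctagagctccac
Cxcl2: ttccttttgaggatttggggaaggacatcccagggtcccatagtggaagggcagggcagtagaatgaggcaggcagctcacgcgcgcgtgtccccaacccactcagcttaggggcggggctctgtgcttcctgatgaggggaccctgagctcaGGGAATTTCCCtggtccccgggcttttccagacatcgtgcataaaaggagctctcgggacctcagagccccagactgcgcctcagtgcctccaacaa
Cxcl3: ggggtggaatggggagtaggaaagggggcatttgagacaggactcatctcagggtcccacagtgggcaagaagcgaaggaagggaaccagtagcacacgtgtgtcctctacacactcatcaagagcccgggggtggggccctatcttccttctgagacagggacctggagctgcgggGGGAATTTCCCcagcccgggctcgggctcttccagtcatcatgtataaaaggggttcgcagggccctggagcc
Cxcl10: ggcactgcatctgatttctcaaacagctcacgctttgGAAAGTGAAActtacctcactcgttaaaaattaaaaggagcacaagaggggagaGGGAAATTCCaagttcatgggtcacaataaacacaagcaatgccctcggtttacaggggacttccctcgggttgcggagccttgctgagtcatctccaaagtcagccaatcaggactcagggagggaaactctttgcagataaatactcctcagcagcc
Counting the last base before the start as -1, the word ran from -71 to -61 in Cxcl1, from -97 to -87 in Cxcl2 and from -73 to -63 in Cxcl3. In Cxcl10, GAAAGTGAAA ran from -213 to -204 and GGGAAATTCC from -159 to -150.

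The CCR2 axis, which draws inflammatory monocytes out of blood, was higher in its ligands and in its receptor. Ccl2 (ENSMUSG00000035385), the main ligand of CCR2, ranged from 0.205 to 1.66 CPM (median 0.585) in control and from 2.99 to 5.67 CPM (median 4.63) in MCD livers. The diets did not overlap. Its log2 fold change was 2.65 (SE 0.23, FDR 2.5e-10). Ccl7 (ENSMUSG00000035373), a second CCR2 ligand, had 0 to 9 counts per control library, with a median of 2 that is under the floor, and 15 to 61 counts per MCD library. In CPM it ran from 0 to 0.403 (median 0.130) in control and from 0.621 to 2.25 (median 0.941) in MCD livers, again without overlap. The fitted log2 fold change of 2.86 (SE 0.33, FDR 3.62e-08) therefore rests on few control reads. Ccl12, the third ligand assigned to CCR2, could not be tested, with at most 9 counts in any library. Ccr2 (ENSMUSG00000049103) itself ranged from 0.984 to 7.35 CPM (median 1.74) in control and from 8.23 to 12.8 CPM (median 10.1) in MCD livers. The highest control value belonged to control replicate 11, with the next control at 3.34 CPM, and it still lay under every MCD library. Ccr2 rose by 2.10 on the log2 scale (SE 0.25, FDR 4.69e-08), or by 2.41 without control replicate 11.

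Ligands of CCR1, a receptor of monocytes and macrophages, and of related CC receptors were higher without exception among the 4 tested, and the groups did not overlap for any of them. Over all tested genes 19.2% were higher, and for 9.50% every MCD library lay above every control library. Ccl6 and Ccl9 reached the filter level in every library of both diets, Ccl3 and Ccl4 in every MCD but not every control library. Ccl6 (ENSMUSG00000018927) and Ccl9 (ENSMUSG00000019122) are rodent CC ligands of CCR1 and had the highest levels per kilobase of exon among the CC ligands in both diets. Ccl6 ranged from 5.48 to 19.2 CPM (median 9.43) in control and from 22.9 to 48.3 CPM (median 34.4) in MCD livers, a log2 fold change of 1.66 (SE 0.20, FDR 9.05e-08). Ccl9 ranged from 20.7 to 57.2 CPM (median 31.5) in control and from 58.9 to 79.3 CPM (median 69.9) in MCD livers. Its rise of 0.98 (SE 0.14, FDR 1.68e-06) was the smallest among the higher genes described, and the lowest MCD library was just above the highest control. Ccl3 (ENSMUSG00000000982) and Ccl4 (ENSMUSG00000018930) encode the macrophage inflammatory proteins 1-alpha and 1-beta, and both were near the floor in control livers. Ccl3 ranged from 0 to 0.627 CPM (median 0.293) in control and from 0.914 to 1.96 CPM (median 1.35) in MCD livers, a log2 fold change of 2.27 (SE 0.29, FDR 1.59e-07). Ccl4 ranged from 0.0582 to 0.679 CPM (median 0.235) in control and from 1.5 to 2.66 CPM (median 1.78) in MCD livers, a log2 fold change of 2.79 (SE 0.27, FDR 1.83e-09).

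The receptor Ccr1 (ENSMUSG00000025804) ranged from 0 to 0.627 CPM (median 0.234) in control and from 1.22 to 4.04 CPM (median 2.63) in MCD livers, without overlap. Its log2 fold change, 3.06 (SE 0.28, FDR 5.77e-10), was the largest among the receptors described.

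CXCR2 ligands, which attract neutrophils, were higher in all 3 tested genes, against 19.2% of all tested genes. Cxcl1 reached the filter level in every library of both diets, Cxcl2 and Cxcl5 in every MCD but not every control library. Cxcl1 (ENSMUSG00000029380) ranged from 0.837 to 4.24 CPM (median 2.20) in control and from 7.02 to 12.2 CPM (median 8.87) in MCD livers, so that the groups were apart. Its log2 fold change was 2.08 (SE 0.21, FDR 4.84e-09). Cxcl2 (ENSMUSG00000058427) had 0 to 7 counts per control library, 5 of them at 0, and 15 to 43 counts per MCD library. In CPM this was 0 to 0.408 (median 0.0872) against 0.654 to 1.89 (median 1.13), and the fitted log2 fold change was 3.11 (SE 0.39, FDR 1.55e-07). Cxcl5 had 0 to 4 counts in control and 12 to 39 in MCD libraries, and a fitted log2 fold change of 3.35 (SE 0.38, FDR 3.28e-08). For both genes the control medians were under the floor, so the fitted size of the rise rests on few reads. Cxcl5 was dropped by the low-count filter in the fits without MCD replicate 2, 3, 4, 5, 7, 9 or 12, which leaves 33 genes tested and 22 higher in each. Cxcl3 was at 0 in all 12 control libraries and had up to 7 counts in MCD libraries, 11 of which held at least 1 count. The receptors Cxcr1 and Cxcr2 were too low to test, with at most 10 and 11 counts in any library. Neutrophil marker genes (S100a8, S100a9, Retnlg, Ly6g, Csf3r, Mmp8, Camp) summed to 2.24 to 7.57 CPM in control and 12.9 to 36.1 CPM in MCD livers, and the 3 of 7 that could be tested were higher, against 19.2% of all tested genes, 2 of them reaching the filter level in every MCD but not every control library. Ly6g, a defining neutrophil marker, was at 0 in every control library and at most 0.128 CPM in MCD libraries. Their part in the values of the CXCR2 ligands was not tested.

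**Figure D2:**
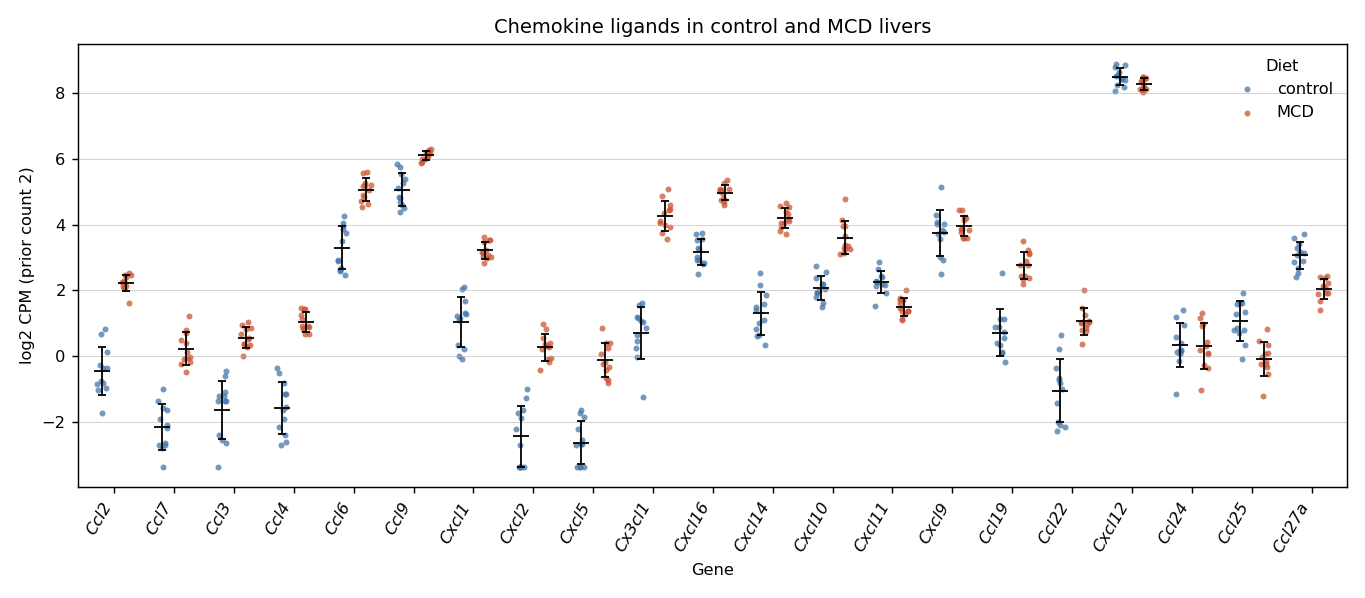
Log2 CPM (prior count of 2) of the 21 tested ligands in each library; each point is a liver, and the bars give the mean and SD of 12 control and 12 MCD livers. Libraries at 0 counts appear at the bottom near -3, as for Cxcl2 and Cxcl5 in control. The points of the diets are separate for 13 higher ligands. They overlap for the higher Ccl19 and Ccl22, the lower Ccl25, Ccl27a and Cxcl11, and for Cxcl9, Cxcl12 and Ccl24.

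Fractalkine and its receptor were both higher. Cx3cl1 (ENSMUSG00000031778, chr8:94772009-94782427) encodes fractalkine, a chemokine made as a membrane-anchored protein, and its receptor CX3CR1 marks monocyte-derived cells. Cx3cl1 ranged from 0.325 to 3.0 CPM (median 1.84) in control and from 11.7 to 33.8 CPM (median 18.8) in MCD livers. The lowest MCD library was far above the highest control. The log2 fold change was 3.51 (SE 0.23, 95% confidence interval 3.04 to 3.99, FDR 3.39e-12). Cx3cr1 (ENSMUSG00000052336) ranged from 0.325 to 5.60 CPM (median 1.73) in control and from 8.37 to 21.4 CPM (median 12.2) in MCD livers. These ranges also did not overlap, and the log2 fold change was 2.67 (SE 0.33, FDR 1.02e-07). Exons of Cx3cr1 overlap those of Gm33858 on the opposite strand, a predicted gene with at most 0.105 CPM in any library.

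The CXCL12 and CXCR4 pair, known for retaining and homing leukocytes and progenitor cells, split between ligand and receptor. Cxcl12 (ENSMUSG00000061353) had the highest level per kilobase of exon of all members, and in CPM ranged from 267 to 471 CPM (median 355) in control and 264 to 360 CPM (median 309) in MCD livers. The groups overlapped and the change was not past the threshold, with a log2 fold change of -0.23 (95% confidence interval -0.43 to -0.04, FDR 0.0334). With total counts alone its sign turned, to 0.12. Cxcr4 (ENSMUSG00000045382) ranged from 0.390 to 1.47 CPM (median 0.629) in control and from 4.76 to 7.22 CPM (median 6.11) in MCD livers, well apart. Its log2 fold change of 2.95 (SE 0.18, 95% confidence interval 2.57 to 3.33, FDR 1.31e-12) had the smallest SE among the receptors with a rise above 2. Ackr3, an atypical receptor that also binds CXCL12, is described with its class.

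CXCL16, a transmembrane chemokine, and CXCR6, its receptor on T and NKT cells, were both higher. Cxcl16 (ENSMUSG00000018920) ranged from 5.60 to 13.2 CPM (median 8.72) in control and from 24.1 to 40.8 CPM (median 32.8) in MCD livers. There was no overlap, and the log2 fold change was 1.78 (SE 0.13, FDR 1.52e-11). Cxcr6 (ENSMUSG00000048521) ranged from 0.112 to 1.02 CPM (median 0.324) in control and from 1.16 to 3.62 CPM (median 2.07) in MCD livers, a log2 fold change of 2.02 (SE 0.31, FDR 3.61e-06). Its diets were likewise separate, although the gap between the highest control and the lowest MCD library was small.

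The 3 ligands of CXCR3, a receptor of activated T and NK cells, did not share a call, with 1 higher, 1 lower and 1 not past the threshold. Their genes are neighbours on chromosome 5 and are classically induced by interferon. Cxcl10 (ENSMUSG00000034855) ranged from 2.73 to 6.62 CPM (median 3.96) in control and from 8.5 to 27.2 CPM (median 10.2) in MCD livers, without overlap. Its log2 fold change was 1.59 (SE 0.18, FDR 3.81e-08), and MCD replicate 12 alone reached the highest value. Cxcl9 ranged from 5.53 to 35.3 CPM (median 13.8) in control and from 11.97 to 21.8 CPM (median 14.5) in MCD livers. The control range enclosed the MCD range, and the log2 fold change was 0.10 (95% confidence interval -0.32 to 0.52, FDR 0.69). Cxcl11 (ENSMUSG00000060183) ranged from 2.80 to 7.17 CPM (median 4.70) in control and from 2.06 to 3.96 CPM (median 2.59) in MCD livers. The groups overlapped, with 7 of 12 MCD libraries below the lowest control, and the log2 fold change was -0.80 (SE 0.13, FDR 9.13e-06). The annotation lists Cxcl11 as a polymorphic pseudogene, which is a gene that is disrupted in some strains. Its RNA counts therefore cannot be read as the level of a working CXCR3 ligand in these mice. With total counts alone Cxcl11 was no longer past the threshold (-0.46, FDR 0.0118). Cxcr3 (ENSMUSG00000050232), on chromosome X, ranged from 0.390 to 1.46 CPM (median 0.757) in control and from 1.73 to 4.85 CPM (median 2.89) in MCD livers. The diets did not overlap, and the log2 fold change was 1.72 (SE 0.21, FDR 7.48e-08).

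CCR7 and its ligands guide dendritic cells and naive lymphocytes within lymphoid tissue. Ccl19 (ENSMUSG00000071005) ranged from 0.781 to 5.68 CPM (median 1.47) in control and from 4.49 to 11.1 CPM (median 6.77) in MCD livers. A single control library, replicate 12, overlapped the MCD livers, and 7 of 12 MCD libraries lay above it. The log2 fold change was 1.98 (SE 0.25, FDR 1.23e-07), or 2.31 without that library. Ccr7 (ENSMUSG00000037944) ranged from 0.409 to 2.12 CPM (median 0.950) in control and from 2.03 to 5.09 CPM (median 3.59) in MCD livers. Only the lowest MCD library fell within the control range, and the log2 fold change was 1.77 (SE 0.21, FDR 5.39e-08). The other CCR7 ligands, Ccl21a and Ccl21b, are near-identical copies between which reads may be split, and neither was tested. Ccl21b had 0 to 116 counts per library, with a median of 0 in both diets. Ccl22 (ENSMUSG00000031779), a ligand of CCR4 made by dendritic cells and macrophages, ranged from 0.112 to 1.47 CPM (median 0.437) in control and from 1.21 to 3.97 CPM (median 1.92) in MCD livers. In 11 of 12 MCD libraries it was above the highest control, and the log2 fold change was 2.02 (SE 0.31, FDR 3.48e-06). Ccr4 itself had at most 3 counts in any library.

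Cxcl14 (ENSMUSG00000021508), a chemokine of epithelial and stromal cells that is not assigned to a signalling receptor here, had one of the clearest rises. It ranged from 1.17 to 5.71 CPM (median 2.30) in control and from 13.0 to 25.4 CPM (median 17.5) in MCD livers. The groups were far apart, and the log2 fold change was 2.81 (SE 0.21, FDR 1.52e-11).

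Ccl25 and Ccl27a, ligands associated with homing to gut and skin through CCR9 and CCR10, were lower in MCD livers. Ccl25 (ENSMUSG00000023235) ranged from 0.837 to 3.71 CPM (median 2.02) in control and from 0.332 to 1.67 CPM (median 0.847) in MCD livers. The diets overlapped, 6 of 12 MCD libraries lying below the lowest control, and the log2 fold change was -1.24 (SE 0.24, FDR 5.64e-05). Ccl27a (ENSMUSG00000073888) ranged from 5.18 to 13.1 CPM (median 8.5) in control and from 2.54 to 5.29 CPM (median 4.10) in MCD livers. All but 1 MCD library lay below the lowest control, and the log2 fold change was -1.06 (SE 0.15, FDR 6.14e-07). Ccl27a has near-identical copies in the mouse genome, so its reads may be split between them. The receptors Ccr9 and Ccr10 were too low to test, with at most 13 and 11 counts in any library. Ccl24, a ligand of the eosinophil receptor CCR3, did not pass the threshold (log2 fold change -0.005, 95% confidence interval -0.58 to 0.57, FDR 0.989), and its sign was positive with DESeq2, without the low-count filter and under all 3 other library scalings.

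All 4 lower genes share exon sequence with a gene on the opposite strand, and so do 3 of the 23 higher genes and 1 of the 7 others. Whether strand was used in counting the mouse libraries is not given in the sources used here, so reads of the partner genes may be included. For the lower genes the partners are Elavl1 (Ccl25), Il11ra1 (Ccl27a), Gm2673 (Cxcl11) and Acad11 (Ackr4). Acad11, an acyl-CoA dehydrogenase gene at 328 to 505 CPM in control and 128 to 246 CPM in MCD livers, was itself lower at -1.07 on the log2 scale (SE 0.09, FDR 1.56e-10). Il11ra1 was higher (0.58, FDR 0.000128), opposite in direction to Ccl27a. Elavl1 had a log2 fold change of -0.22 (FDR 0.0151), not past the threshold, and Gm2673 had at most 0.0896 CPM in any library. Among the higher genes, Cxcl10 overlaps Art3 (log2 fold change 0.28, FDR 0.123) and Cxcl16 overlaps Zmynd15 (0.39, FDR 0.0177), neither of them past the threshold. The part of these partners in the counts was not tested.

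Atypical receptors did not follow the signalling receptors in a single direction. Ccrl2 (ENSMUSG00000043953), which binds the chemoattractant chemerin without signalling, was the only one called higher. It ranged from 0.781 to 3.49 CPM (median 2.29) in control and from 4.17 to 7.61 CPM (median 5.14) in MCD livers, without overlap, and the log2 fold change was 1.38 (SE 0.17, FDR 1.08e-07). Ackr4 (ENSMUSG00000079355), a scavenger of CCL19, CCL21 and CCL25, ranged from 1.07 to 2.42 CPM (median 1.73) in control and from 0.652 to 1.86 CPM (median 0.953) in MCD livers. The diets overlapped, and its log2 fold change was -0.63 (SE 0.19, FDR 0.00441). The fold change stayed between -0.69 and -0.53 in the 24 fits with a single library left out, but the call was lost in 9 of them, namely without control replicate 1 or 3 or MCD replicate 2, 3, 5, 7, 10, 11 or 12, with FDR up to 0.0145. The call was also lost with upper-quartile factors (-0.48, FDR 0.0276), with total counts alone (-0.27, FDR 0.245) and with no low-count filter (-0.59, FDR 0.0163). Ackr3, the scavenger of CXCL12, ranged from 0 to 1.11 CPM (median 0.447) in control and from 0.468 to 2.04 CPM (median 0.928) in MCD livers. It was not past the threshold (log2 fold change 0.94, 95% confidence interval 0.27 to 1.60, FDR 0.0143) but passed as higher without control replicate 8 (1.09, FDR 0.00523) or control replicate 11 (1.09, FDR 0.00574). Ackr1, a chemokine-binding protein of red cells and venules had a log2 fold change of -0.42 (95% confidence interval -0.93 to 0.09, FDR 0.146). Its exons overlap Cadm3 on the same strand, which was lower at -1.21 on the log2 scale (FDR 3.08e-08) without overlap between the diets. Ackr2, a scavenger of inflammatory CC ligands, had one of -0.48 (95% confidence interval -0.93 to -0.03, FDR 0.0577). Among signalling receptors only Cxcr5, the B cell receptor for CXCL13, did not pass the threshold (0.28, 95% confidence interval -0.31 to 0.87, FDR 0.414), and its exons overlap those of Bcl9l on the opposite strand. Bcl9l was lower at -0.65 (FDR 4.09e-06), again without overlap of the diets. The part of Cadm3 and Bcl9l in these receptor counts was not tested.

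**Figure D3:**
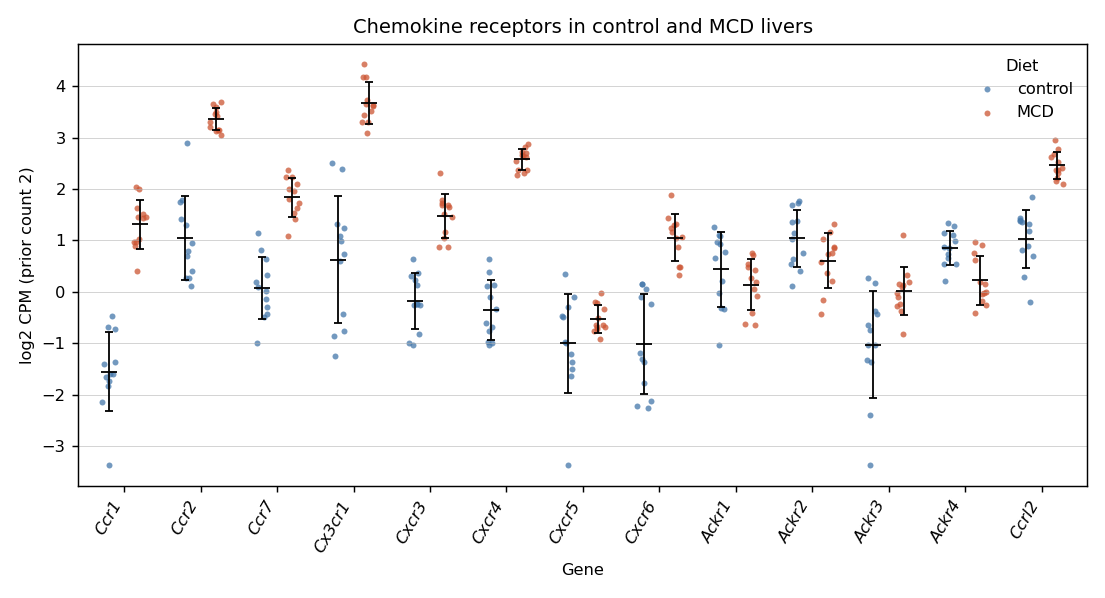
Log2 CPM (prior count of 2) of the 13 tested receptors, signalling on the left and atypical on the right, in each library; each point is a liver, and the bars give the mean and SD of 12 control and 12 MCD livers. Ccr1, Ccr2, Cx3cr1, Cxcr3, Cxcr4, Cxcr6 and Ccrl2 are separate between the diets, while Ccr7 touches and Ackr1, Ackr2, Ackr3, Ackr4 and Cxcr5 overlap broadly.

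Too few reads were available for 22 of the 56 genes. Ccl26 and Cxcl15 were at 0 counts in all libraries, and the other 20 had some counts, the largest being the 116 of Ccl21b. Ccl20, the ligand of CCR6, had counts in 1 of 12 control and 11 of 12 MCD libraries, with at most 17. Cxcl17, a mucosal chemokine, was at 0 in every control library and had 0 to 4 counts in MCD libraries. Cxcl13, the B cell attractant, had 1 to 24 counts in control (median 15.5) and 0 to 16 in MCD libraries (median 5.5). In a fit without the low-count filter its log2 fold change was -1.67 (SE 0.47, FDR 0.00456), the only untested gene here called lower there, and Ccl17, Ccl20, Ccl21a, Cxcl3 and Cxcl17 were called higher. Of the remaining untested genes, Ccl1, Ccl8, Ccl11, Ccl12, Ccl28, Ccr3, Ccr4, Ccr6, Ccr8, Ccr9, Ccr10, Cxcr1 and Cxcr2 had at most 13 counts in any library and were not called in that fit, nor was Ccl21b.

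Levels of different genes were compared per kilobase of exon, as RPKM computed from TMM-scaled CPM, by the median of 12 livers. Cxcl12 led in both diets, at 43.4 RPKM in control and 37.9 RPKM in MCD livers, ahead of Ccl9 (10.4 and 23.0 RPKM) and Ccl6 (5.25 and 19.2 RPKM). Below these the order changed with diet. Cx3cl1 stood at rank 18 of the 34 tested genes in control (0.468 RPKM) and at rank 8 in MCD livers (4.77 RPKM), level with Cxcl9, Cxcl1 and Cxcl10 at 4.80, 4.73 and 4.54 RPKM. Cxcl14 went from rank 9 to rank 5 (1.26 and 9.57 RPKM). Cxcr4 went from rank 23 (0.348 RPKM) to rank 12 (3.38 RPKM), where it was the highest receptor, while in control livers Ackr1 was the highest receptor at 1.10 RPKM. Ccl27a moved the other way, from rank 5 (3.58 RPKM) to rank 18 (1.73 RPKM). These ranks describe medians and were not tested between genes.

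**Figure D4:**
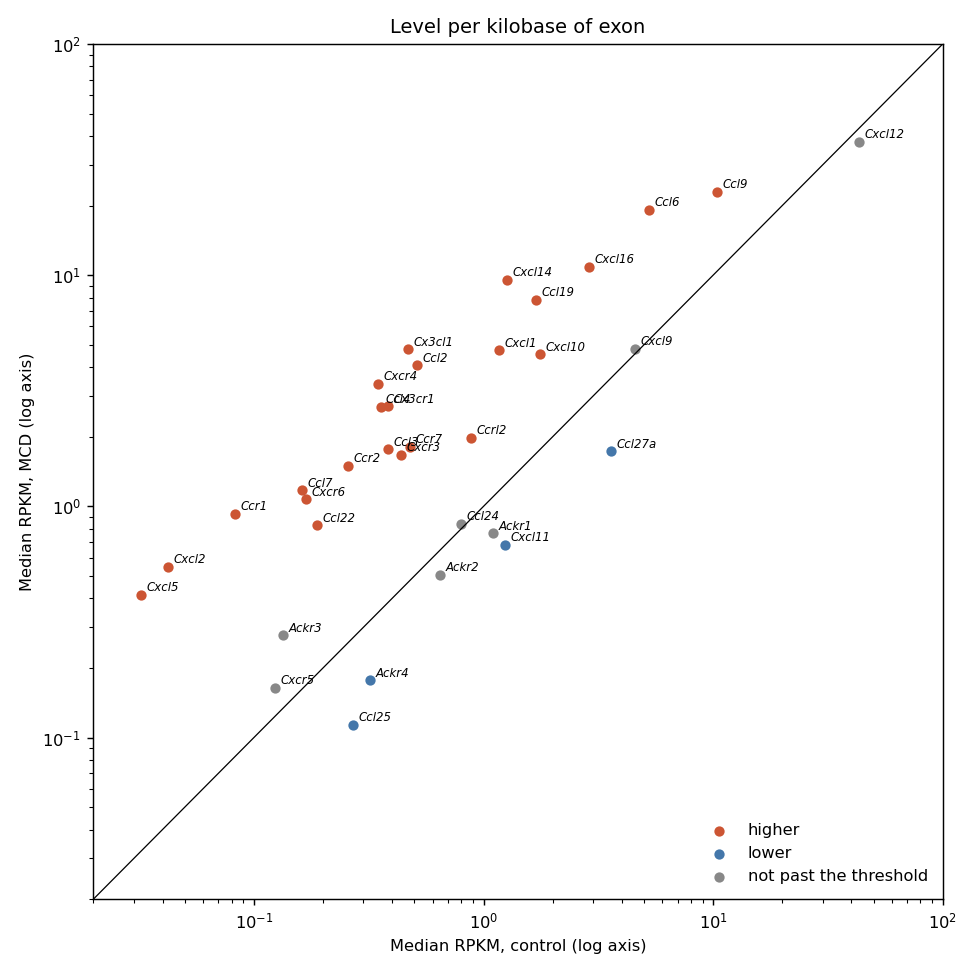
Median RPKM of the 34 tested genes in 12 control livers (x axis) against 12 MCD livers (y axis), both on log axes, with the line of equal level; colours give the call in the diet comparison. Cxcl12 lies at the upper right just under the line, the higher genes lie above the line, and Ccl27a, Cxcl11, Ackr4 and Ccl25 lie below it.

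Relative spread between livers was wider on the control diet. The coefficient of variation of CPM was larger in control than in MCD livers for 31 of the 34 tested genes (91.2%), with a median of 49.9% against 27.6%. This was common to the transcriptome, since it held for 90.0% of all tested genes (median 26.7% against 14.2%). Control replicate 4 held the highest control value for 10 of the 23 higher genes and control replicate 11 for 5. Without control replicate 4 the counts were 23 higher and 4 lower, and without control replicate 11 they were 24 and 4. Among MCD livers, replicate 9 was lowest for 7 of the 23 genes and replicate 2 highest for 6. Summed markers of monocyte-derived macrophages, at 110 to 279 CPM in control livers, were highest in replicate 11 (279 CPM), then in replicate 2 (265 CPM, with the highest control value for 1 of the 23 genes) and in replicate 4 (263 CPM). Spp1 alone made up 138 CPM of the sum in replicate 11, the highest control value of that gene. In MCD replicates 9 and 2 the summed markers were at 1400 and 3281 CPM, the lowest and the highest of the MCD livers. Their part in these values was not tested.

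Further genes of the pathway were taken from a list of 39, chosen with earlier results known, that holds chemokine genes outside the symbol patterns, transduction and regulation. It had 36 tested, of which 25 were higher, 3 lower and 8 not past the threshold, with a median log2 fold change of 1.22, against shares of 19.2% higher and 19.1% lower over all tested genes. Of the 36, 30 reached the filter level in every library of both diets, with 19 higher and 3 lower, where 13.4% of all such genes were higher, and 5 did so in every MCD but not every control library, all 5 higher. Outside the symbol patterns, Pf4 (platelet factor 4, a CXC ligand) rose by 2.17 (SE 0.19, FDR 2.37e-10) and Xcr1, the receptor of cross-presenting dendritic cells, by 1.73 (SE 0.27, FDR 5.27e-06). In transduction, 16 of 22 tested genes were higher and 2 lower, to be read against the same background. Pik3r5, a regulatory subunit of the phosphoinositide 3-kinase that G protein beta-gamma subunits activate, went from 1.06 to 4.47 CPM in control to 11.5 to 21.6 CPM in MCD livers, with a log2 fold change of 2.92 (SE 0.18, FDR 1.31e-12). Dock2, which activates Rac in migrating leukocytes, rose by 1.78 (SE 0.18, FDR 2.76e-09). The more widely expressed inhibitory G protein subunits differed in direction, Gnai2 being higher (0.58, FDR 5.9e-06) and Gnai3 lower (-0.58, FDR 1.23e-05). Rasgrp2, an activator of Rap1 in platelets and leukocytes, was lower (-0.92, FDR 4.16e-07). In regulation, 7 of 12 tested genes were higher and 1 lower, against 19.2% and 19.1% of all genes. Rgs1, which curbs G protein signalling in lymphocytes and myeloid cells, rose by 3.08 (SE 0.23, FDR 1.52e-11), and Arrb2, a beta-arrestin that internalises receptors, by 0.94 (SE 0.10, FDR 9.83e-09). Dpp4, the peptidase that trims the amino terminus of several chemokines, was the lower gene, at -0.74 (SE 0.10, FDR 3.04e-07).

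Markers of other cell types differed in how many were called, against 19.2% higher and 19.1% lower among all tested genes. Of all genes at the filter level in every library of both diets 13.4% were higher. Of those at it in every MCD but not every control library 68.8% were higher, so these counts partly follow from the filter. Markers of monocyte-derived macrophages (Ly6c2, Itgam, Cd68, Lyz2, Trem2, Spp1, Cd9) were higher in all 7. Their sum went from 110 to 279 CPM in control to 1400 to 3281 CPM in MCD livers, where Lyz2 (median 1082 CPM) and Spp1 (median 600 CPM) had the highest levels. Of the 7, 4 reached the filter level in every library of both diets and 3 in every MCD but not every control library. Kupffer cell markers (Clec4f, Vsig4, Timd4, Marco, Cd5l, Folr2) were lower in 4 of 6, with sums of 144 to 440 CPM in control and 85.8 to 311 CPM in MCD livers. Of the 4 lower markers, 3 reached the filter level in every library of both diets. T and NK cell markers were higher in 5 of the 6 tested of 8 (sums 2.51 to 8.33 and 8.24 to 23.6 CPM), all 6 of which reached the filter level in every MCD but not every control library, while B cell markers were higher in 1 of 5 (3.41 to 15.4 and 7.51 to 14.4 CPM). Dendritic cell markers were higher in 2 of the 5 tested of 6 (11.7 to 23.5 and 51.0 to 104 CPM), most of that sum in MCD livers being Itgax, which macrophages also express. Both higher dendritic cell markers reached the filter level in every MCD but not every control library. Cholangiocyte markers were higher in all 5 (3.71 to 14.9 and 41.5 to 98.1 CPM), of which 3 reached the filter level in every library of both diets and 2 in every MCD but not every control library. Stellate and fibroblast markers were higher in 4 of 6 and lower in 1 (190 to 432 and 474 to 743 CPM). Endothelial markers were lower in 5 of 6 (190 to 283 and 105 to 175 CPM), and hepatocyte markers in 2 of 7 (77360 to 179600 and 60280 to 86400 CPM). The shares for B cell markers (1 of 5 higher) and hepatocyte markers (2 of 7 lower) were near the background. The part of these cell types in the chemokine values was not tested.

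Whether ligand and receptor levels followed each other from liver to liver was examined for 7 pairs within each diet, 14 relations in all, on log2 CPM of 12 livers. By Pearson's r with a two-sided permutation test, 4 relations had a Benjamini-Hochberg adjusted p of 0.05 or less, and by Spearman's rho 0 did, or 6 and 5 with total counts alone. Before adjustment, 6 had a p under 0.05 by r and 3 by rho. The highest r was that of Cx3cl1 and Cx3cr1 in MCD livers, at 0.793 (permutation p = 0.00231, adjusted 0.0323), with a rho of 0.727 (permutation p = 0.0097, adjusted 0.136). In control livers the same pair had an r of 0.677 (permutation p = 0.0119, adjusted 0.0418) and a rho of 0.657 (permutation p = 0.0243, adjusted 0.161). Ccl2 and Ccr2 in control livers had an r of 0.695 (permutation p = 0.0119, adjusted 0.0418) and a rho of 0.538 (permutation p = 0.075, adjusted 0.175). Cxcl9 and Cxcr3 in control livers had an r of 0.724 (permutation p = 0.00658, adjusted 0.0418) and a rho of 0.622 (permutation p = 0.0344, adjusted 0.161). Without the 2 livers farthest from the median of the ligand none of the 14 passed, with 3 at an unadjusted p under 0.05 by r. The r of Cx3cl1 and Cx3cr1 fell to 0.576 in MCD and 0.449 in control livers, that of Ccl2 and Ccr2 to 0.313 and that of Cxcl9 and Cxcr3 to 0.631. None of these 4 passed the adjusted limit over the remaining 10 livers. The r of other relations rose, to 0.746 for Ccl3 and Ccr1 in MCD livers (0.266 over all 12; permutation p = 0.0144, adjusted 0.101), to 0.765 for the same pair in control livers (0.647 over all 12; permutation p = 0.00834, adjusted 0.101) and to 0.624 for Cxcl9 and Cxcr3 in MCD livers (0.361 over all 12; permutation p = 0.0539, adjusted 0.189). Cxcl16 and Cxcr6 had an r of 0.633 in MCD livers (permutation p = 0.028, adjusted 0.0654) and 0.376 in control livers (permutation p = 0.224, adjusted 0.314). The other relations ran from -0.38 (Cxcl10 and Cxcr3 in MCD livers) to 0.65 (Ccl3 and Ccr1 in control livers). The points share their library and its scaling factor, and no labelled batch was given within which to recompute them.

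**Figure D5:**
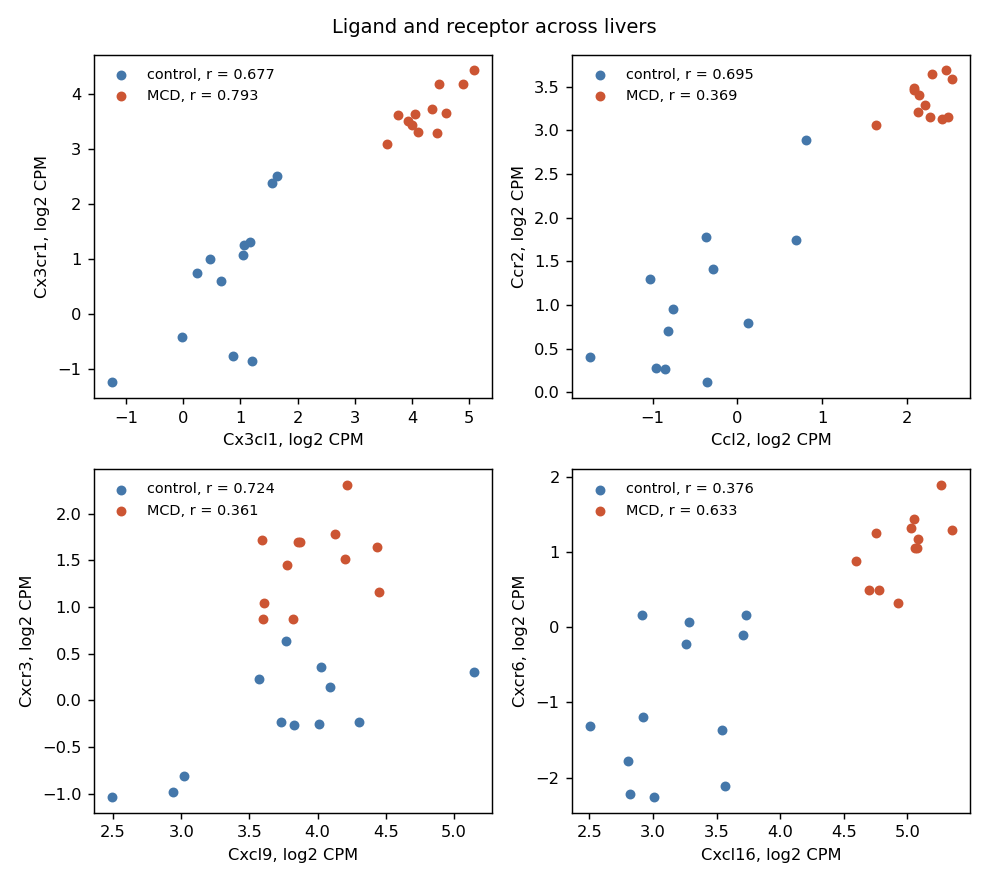
Log2 CPM of 4 ligands (x axes) and their receptors (y axes) in 12 control and 12 MCD livers, with Pearson's r within each diet. Each point is a liver; the diets form separate clusters for Cx3cl1, Ccl2 and Cxcl16, whereas Cxcl9 overlaps between the diets and Cxcr3 does not, being higher in MCD livers.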

How the data were processed

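The authors deposited raw counts of reads for each Ensembl gene, 1 column per library, without normalization or a low-count filter (28652 of 56205 rows are 0 throughout; 0 columns were unused). The submitters' processing notes name bcl2fastq, STAR 2.7.3a and mm10. The study's methods name a stranded mRNA kit without saying for which libraries, and a quantification program for alignment to the human genome. For the mouse libraries the counting program, annotation and strand setting are not given in the sources used here. Symbols, exon lengths, positions and exon overlaps came from GENCODE mouse release 21 (GRCm38) by Ensembl identifier, which named 51745 rows. Unnamed rows held 0.0808% of counts. Among genes matching the symbol patterns, 2 are not reported here. Pairwise checks within diets found 0 identical libraries among 132 pairs (smallest dispersion index 11.4, where sampling noise gives 1).

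In R 4.3.3, low genes were removed with filterByExpr (edgeR, by diet), and the 14109 left were scaled with TMM and compared in edgeR 4.0.16 (glmQLFit, glmQLFTest) over 24 libraries without covariates. FDR is Benjamini-Hochberg over all tested genes, and the limits (0.01, absolute log2 0.5) are those the study used for human liver. The biological coefficient of variation was 26.8%. CPM uses TMM-scaled sizes, log2 CPM a prior count of 2. Confidence intervals (95%) come from fitted SEs. The floor of 3 counts covers counting error only. Permutation tests used 100000 resamples (Python 3.11.15, numpy 2.4.6, scipy 1.17.1), and figures matplotlib 3.10.9. The fits were tested on simulated counts.

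Members, marker and signalling lists were chosen with earlier results of these data known, and the overlap partners after these results were seen. Full values are given for called members whose mean reached 1 CPM in a diet (26 genes) and for tested receptors of those ligands; other members get fold changes or count ranges. Alternatives were other library scalings, filters, call limits, DESeq2 1.42.0, limma-voom (limma 3.58.1), a replicate block, a numeric score of sex-linked genes as covariate (no library was assigned a sex) and leaving out each library. Labels do not say how libraries of a diet relate beyond being separate samples, so p-values measure the spread between these libraries.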

Additional observations from a re-analysis of the deposited data

How the results depend on the processing

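The number of higher genes was 23 under relative log expression factors, the replicate block and the sex-linked score, 24 with upper-quartile factors, total counts alone, DESeq2, limma-voom and an FDR limit of 0.05 with any fold, 22 with a log2 limit of 1, and 28 with no low-count filter, where 54 members were tested. It fell to 9 with at least 10 counts in every sample, where only 15 members could be tested. The number of lower genes, 4, was 2 with total counts alone and with a log2 limit of 1, 3 with upper-quartile factors and with at least 10 counts in every sample, 5 at the FDR limit of 0.05 with any fold, and 4 otherwise. Leaving out each library gave 22 to 24 higher and 3 to 4 lower genes. Total counts alone moved the median of all genes up by 0.37, upper-quartile factors by 0.15 and no filter by 0.12, and the shares of all genes called higher and lower were 23.1% and 12.1% with upper-quartile factors, 32.2% and 6.01% when scaling by totals, 13.5% and 9.62% with no filter, 15.4% and 16.1% with at least 10 counts in every sample, 26.5% and 37.0% at the FDR limit of 0.05 and 13.2% and 4.86% with a log2 limit of 1. Ccl24, never past the threshold, turned positive with DESeq2 (0.0513), no filter (0.0358), total counts alone (0.35), upper-quartile factors (0.14) and relative log expression factors (0.0518), and ran from -0.10 to 0.13 over the leave-one-out fits, 13 of which reversed it. Cxcl12 turned to 0.12 with total counts alone. The cause was not tested beyond the median shift. Ackr3 passed as higher with upper-quartile factors (1.08), total counts alone (1.29), DESeq2 (1.003) and limma-voom (1.26). Of 287 values of single members under the 9 alternatives of scaling, filter, tool, block and score (the call limits not among them), 273 kept direction and side of the threshold, as did 785 of 809 in the leave-one-out fits. Of the 14 ligand and receptor relations, 0 passed without the 2 livers farthest from the ligand median, 4 with residuals on the sex-linked score and 6 with total counts alone, against 4 (by rho 0, 0 and 5, against 0).

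Diets share replicate numbers. Same-numbered libraries deviated together (r above 0.1) in 8 of 12 pairs (range -0.28 to 0.35, median 0.233 against -0.059 for other pairs). Of 12 control libraries, 2 correlated best with their own number. The labels do not say whether the numbers pair the samples, so the main fit did not use them. Whether same-numbered libraries share a factor was not tested. With the replicate block 23 genes were higher and 4 lower, as without it. The low-count filter removed 22 genes, which could not be tested. The fitted size of the rise of Cxcl2, Cxcl5 and Ccl7 was limited by control medians under 3 counts.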
